A study of Caenorhabditis elegans with 2 samples.

Results

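The X intergenic regions were places on chromosome X of Caenorhabditis elegans, away from protein-coding genes, where DNA was recovered in a chromatin immunoprecipitation and sequencing (ChIP-seq) experiment on the tagged protein ALY-2. A region belonged to them when its summit lay on X, outside every protein-coding gene body and more than 500 bp from any protein-coding 5′ or 3′ end, in the list the authors made from the pooled replicates. This gave 901 of 17335 pooled regions, and 901 of the 2910 on X. The comparison class, chosen by the same distances on chromosomes other than X, held 2502 autosomal regions. The remaining 2009 regions on X and 11923 on autosomes lay in or within 500 bp of a protein-coding gene.

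The material was whole L3 larvae, with both sexes pooled, of strain OP217 (unc-119(ed3) III; ddIs172), in which an inserted transgene supplies eGFP-tagged ALY-2. Both samples were of this 1 strain, and they were 2 biological replicates without a comparison condition. The sources used here do not name the promoter of the transgene, and whole animals mix all tissues. Samples of untagged worms or input DNA were not analysed here, so no height was set against a control.

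ALY-2 is a member of the Aly/REF family, adaptor proteins that bind mRNA as it is made and help hand it to the nuclear export machinery. Chromosome X of this worm has its own regulation: in hermaphrodites a condensin-containing dosage compensation complex loads at recruitment sites on X (rex sites), spreads along the chromosome and lowers its transcription. Many of these recruitment sites carry copies of a short sequence motif called MEX, and the letters GCGCAGGG are its core. No map of recruitment sites was used here, so whether any region below is one was not tested.

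The sequences at the summits come first because the highest X intergenic regions share short words. The windows below are those of the 8 highest X intergenic regions, and of 2 further regions of the authors' thresholded list that hold GCGCAGGG. Each reaches 75 bp to either side of the summit, except that the window beside xol-1 was lengthened to 166 bp to show its word whole. They are on the plus strand of WBcel235 (ce11), taken from RefSeq. Capitals mark GCGCAGGG and the closely related GCGAAGGG, or the same words read on the opposite strand, CCCTGCGC and CCCTTCGC. The first word was chosen as the MEX core with earlier results of these data known, and the second only after these windows had been read.
chrX:11094117-11094267, between W04G3.11 and W02H3.3: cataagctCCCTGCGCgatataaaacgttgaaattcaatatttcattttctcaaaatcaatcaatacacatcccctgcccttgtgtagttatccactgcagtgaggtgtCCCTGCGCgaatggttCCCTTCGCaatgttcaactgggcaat
chrX:9465808-9465958, between ZK899.6 and gap-2: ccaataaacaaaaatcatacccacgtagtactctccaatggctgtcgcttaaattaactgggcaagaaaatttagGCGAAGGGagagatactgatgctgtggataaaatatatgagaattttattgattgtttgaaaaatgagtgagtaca
chrX:13700820-13700970, between adm-2 and K02D3.1: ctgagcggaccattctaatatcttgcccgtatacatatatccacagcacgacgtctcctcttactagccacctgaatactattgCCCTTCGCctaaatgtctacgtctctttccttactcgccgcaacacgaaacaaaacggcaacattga
chrX:4209229-4209379, between F20B6.9 and hpk-1: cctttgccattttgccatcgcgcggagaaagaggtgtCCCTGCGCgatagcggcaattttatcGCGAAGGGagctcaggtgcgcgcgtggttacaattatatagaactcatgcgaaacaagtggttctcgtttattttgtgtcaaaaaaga
chrX:14525840-14525990, between nspc-17 and nspc-18: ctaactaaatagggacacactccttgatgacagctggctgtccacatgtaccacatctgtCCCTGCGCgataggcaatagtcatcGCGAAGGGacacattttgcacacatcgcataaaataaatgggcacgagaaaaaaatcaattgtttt
chrX:11937471-11937621, between dot-1.4 and F55G7.5: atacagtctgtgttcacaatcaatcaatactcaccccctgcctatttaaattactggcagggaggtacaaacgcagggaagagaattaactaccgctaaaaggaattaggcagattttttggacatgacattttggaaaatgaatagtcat
chrX:16682057-16682207, between F22H10.2 and F22H10.11: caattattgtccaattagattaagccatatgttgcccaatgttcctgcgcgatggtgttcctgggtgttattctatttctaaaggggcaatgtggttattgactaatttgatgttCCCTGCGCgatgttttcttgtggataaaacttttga
chrX:8036430-8036595, between C34D10.1 and xol-1: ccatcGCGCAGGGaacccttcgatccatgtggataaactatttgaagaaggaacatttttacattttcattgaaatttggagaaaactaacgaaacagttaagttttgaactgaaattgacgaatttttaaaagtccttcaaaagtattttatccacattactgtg
chrX:1344953-1345103, between ins-39 and F56C3.3: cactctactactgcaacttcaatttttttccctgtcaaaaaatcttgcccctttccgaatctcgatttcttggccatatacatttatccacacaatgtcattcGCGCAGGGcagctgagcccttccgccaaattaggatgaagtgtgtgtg
chrX:13514468-13514618, between col-185 and cdk-4: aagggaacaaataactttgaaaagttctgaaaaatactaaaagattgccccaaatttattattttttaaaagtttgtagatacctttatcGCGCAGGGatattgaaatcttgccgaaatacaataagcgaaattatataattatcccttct

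In these windows the word GCGCAGGG occurred at 7 of the 10 summits, 2 of which had been added for holding it, and the highest region had 2 copies. The related word stood beside it in 3 windows, those at W04G3.11, F20B6.9 and nspc-17, and alone at ZK899.6 and adm-2. The window between dot-1.4 and F55G7.5 held neither.

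Each region has a height, the signal value the authors deposited for it, with a scale that the sources used here do not give and that differs between the pooled list and the list of each replicate. Sizes of heights were therefore compared only within a list, apart from the tally of alternatives in the last section. Between lists, ranks, directions and correlations were otherwise used. The highest X intergenic region, chrX:11094153-11094279, had a pooled height of 158, with 64.5 in replicate 1 and 94.7 in replicate 2. It ranked 3 of all pooled regions, 6 in replicate 1 and 3 in replicate 2, and its summit was 2760 bp from W02H3.3, its closest protein-coding gene, and 1481 bp from a tRNA gene. The next, chrX:9465791-9465924, had 151 in the pooled list, 69.0 in replicate 1 and 74.8 in replicate 2. It lay 1142 bp from ZK899.6 and 6587 bp from gap-2, which encodes a Ras GTPase-activating protein, and ranked 4 and 13 in the replicate lists. Both regions were thus among the highest of the genome in each replicate taken alone.

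A further 5 regions had pooled heights above 100. The region chrX:13700697-13701092, 5094 bp from the metalloprotease gene adm-2, had 134 pooled, 50.3 in replicate 1 and 89.1 in replicate 2. The region chrX:4209106-4209501, 1267 bp from hpk-1, the gene of a homeodomain-interacting protein kinase, had 128 pooled, 63.0 in replicate 1 and 62.6 in replicate 2. It ranked 8 in replicate 1 and 29 in replicate 2, and the region near adm-2 ranked 23 and 4, so their order differed between the replicates. The region chrX:14525869-14525987, between the nematode-specific peptide genes nspc-17 and nspc-18, had 127 pooled, 56.6 in replicate 1 and 71.6 in replicate 2. These genes belong to a family of similar neighbouring copies, and the sources used here do not say how the authors placed reads that match several copies. The regions chrX:11937348-11937743, 584 bp from F55G7.5, and chrX:16681934-16682329, 2335 bp from F22H10.2, had 108 and 105 pooled. They had 50.4 and 47.2 in replicate 1, and 67.5 and 55.2 in replicate 2.

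The next region, chrX:8036322-8036717, lay 4793 bp from xol-1, the switch gene of sex determination and dosage compensation, and 154 bp from the noncoding RNA gene C18A11.13. Its pooled height was 98.0, with 30.8 (rank 112) in replicate 1 and 66.3 (rank 21) in replicate 2. Of the 9 highest it was the one whose ranks in the replicates were furthest apart. The region chrX:1344830-1345225 lay 607 bp from ins-39, an insulin-like peptide gene, and had 95.6 pooled, 45.4 in replicate 1 and 50.4 in replicate 2. After it the heights dropped to 77.3 at chrX:1626992-1627387, near the F-box gene fbxb-58, with 42.2 in replicate 1 and 32.7 in replicate 2.

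The authors' optimal list holds the 368 pooled regions that passed their threshold for reproducibility between replicates, and 21 of them were X intergenic. These 368 were also exactly the 368 highest pooled regions (the highest region outside the list ranked 369), so membership restates pooled height, and 6 of the 368 were not found in both replicate lists. Regions 11 to 21 of the X intergenic ones had pooled heights of 62.2 down to 44.2, the last of them close to the list's lowest height of 43.6. The highest of these, chrX:7181521-7181916, lay 3777 bp from F43E12.1 and had 22.8 in replicate 1 and 31.9 in replicate 2. Also among them were chrX:13514345-13514740, 1313 bp from cdk-4, the gene of a cell cycle kinase (59.8 pooled, 29.6 in replicate 1 and 28.7 in replicate 2), and chrX:3127657-3128052, 776 bp from the alpha spectrin gene spc-1 (45.0 pooled, 19.3 and 38.5). Replicate support was weakest in 2 regions. The region chrX:17480048-17480443, 2762 bp from the neuropeptide receptor gene npr-24, ranked 7848 in replicate 1 (height 11.5) and 114 in replicate 2 (38.1). The region chrX:5800972-5801367, near F46G11.4, had no region of replicate 1 over its summit, and had 26.8 in replicate 2. The first X intergenic region outside the optimal list, chrX:9467667-9468062, had a height of 43.3 and lay 1982 bp from the summit of the region between ZK899.6 and gap-2.

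**Figure D1:**
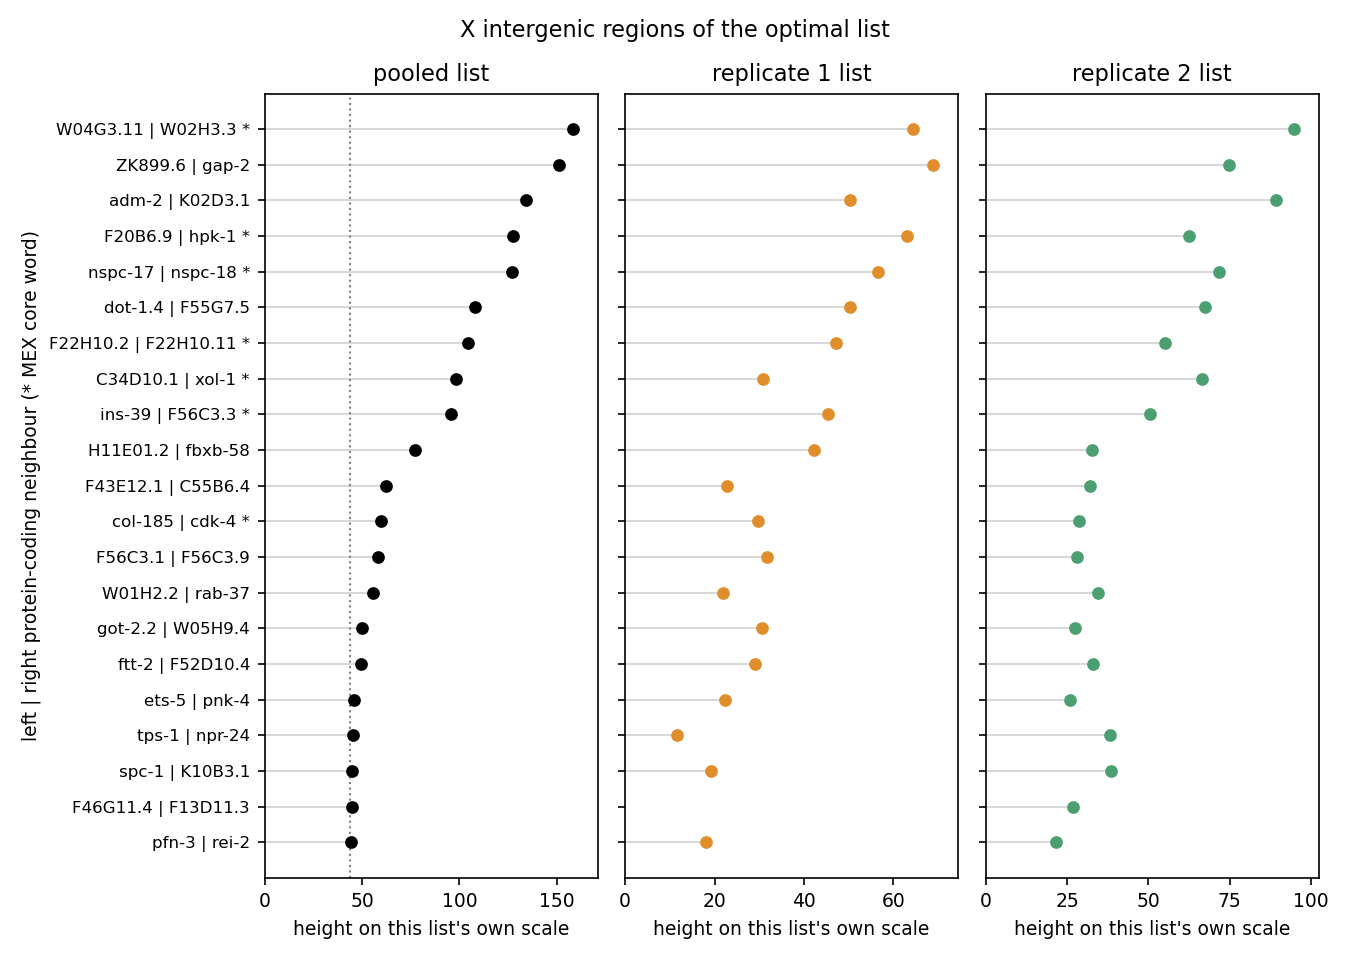
Deposited heights (x axes, scale not given and drawn separately for each list) of the 21 X intergenic regions of the optimal list, 1 region to a line, in the pooled list (left), replicate 1 (middle, 1 region missing) and replicate 2 (right). Each region is named by its protein-coding neighbours, and asterisks mark those with the MEX core word within 100 bp of the summit. The dotted line in the left panel is the lowest pooled height of the optimal list, 43.6. In the pooled list the 9 highest were at 95.6 or more and the next at 77.3.

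Most X intergenic regions were low, and in the bulk of their heights they resembled autosomal intergenic ones. The X intergenic heights had a lowest value of 14.2, quartiles of 15.7 and 21.0 and a median of 17.5, and the autosomal ones had a lowest value of 14.2, quartiles of 15.5 and 20.4 and a median of 17.5. The medians differed by 0.0207, X minus autosomal, and the sign changed when the distance that defines intergenic was set to 250 bp (-0.0949) or 1000 bp (-0.0402). The difference lay in the upper tail. The 99th percentile was 77.3 for X intergenic and 44.3 for autosomal intergenic regions, and the highest values were 158 and 93.3. Heights above 75 were found in 10 of 901 X intergenic regions (1.11%, 95% Wilson interval 0.604 to 2.03%), and in 3 of 2502 autosomal ones (0.120%, 0.0408 to 0.352%). Heights above 100 were found in 7 X intergenic regions (0.777%, 0.377 to 1.59%) and in 0 autosomal intergenic ones, which allows a share of up to 0.153%. Such heights were also found on X in or near genes (5 of 2009 regions) and on autosomes in or near genes (14 of 11923). Regions of 1 list come from the same libraries and are not replicates, so no p-value was computed. In the lists of the single replicates the tail differed in the same direction, with a smaller ratio of X to autosomes. The 99th percentile was 23.6 for X intergenic and 20.8 for autosomal intergenic regions in replicate 1, and 33.3 and 23.0 in replicate 2. These lists are longer, with 1791 and 1277 X intergenic regions against 901 pooled. Their 99th percentile thus lies further down the order, and the ratios are not like for like. The limits of 75 and 100 were applied to pooled heights only.

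**Figure D2:**
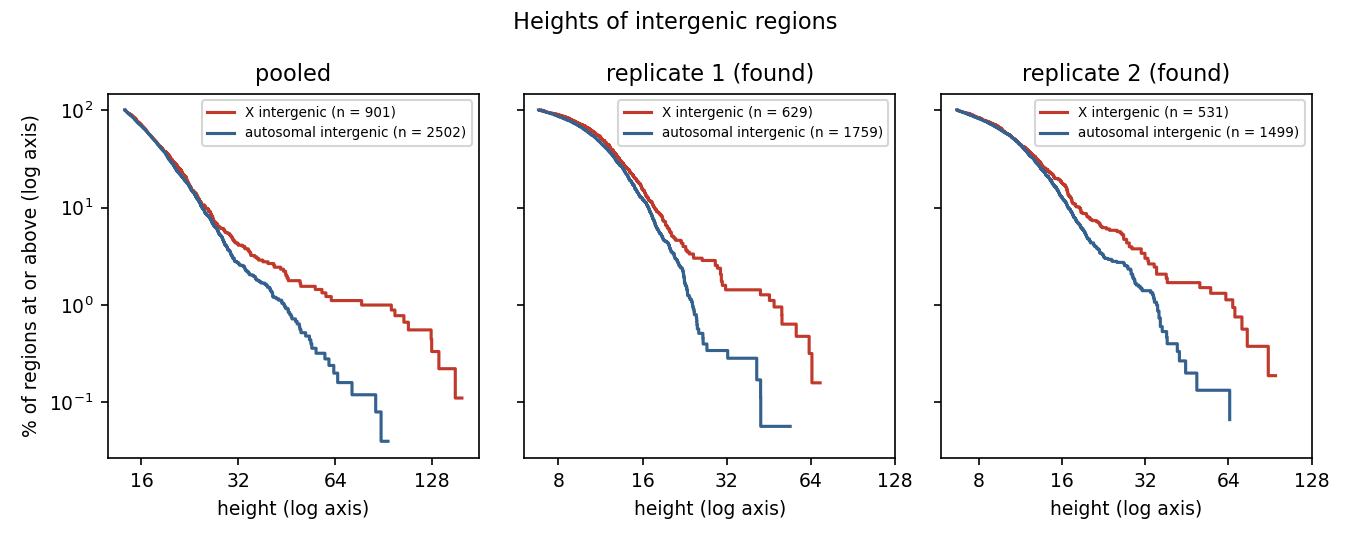
Share of regions (y axis, percent, log scale) at or above each height (x axis, log scale) for X intergenic and autosomal intergenic regions in the pooled list and, for pooled regions found in a replicate, in that replicate. The curves run together at low heights and part at the top, where X reaches 158 and the autosomes 93.3 in the pooled list.

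The share of X intergenic regions in the optimal list, 21 of 901 (2.33%, 1.53 to 3.54%), was near the 2.12% of all pooled regions. Among autosomal intergenic regions it was 28 of 2502 (1.12%, 0.775 to 1.61%). The share of optimal regions was 1.44% on X and 2.43% on autosomes in or near genes. The X intergenic share was thus above the autosomal intergenic one and near the background. At a distance of 250 bp in place of 500 bp the shares were closer, 2.52% for X intergenic and 1.89% for autosomal intergenic regions. Setting aside the threshold, the 368 highest regions of each replicate's own list were taken, each region classed by its own summit. In replicate 1 these held 19 of 1791 X intergenic regions (1.06%) and 22 of 5128 autosomal ones (0.429%), against 1.23% of all its regions. In replicate 2 they held 20 of 1277 X intergenic regions (1.57%) and 28 of 3888 autosomal ones (0.720%), against 1.38% of all. X intergenic sequence is also more extensive, covering 33.5% of X (5.94 Mb), against 23.9% of the autosomes (19.7 Mb). Per Mb of this sequence there were 152 regions on X and 127 on autosomes, and 3.54 optimal regions on X and 1.42 on autosomes.

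Within the optimal list the X intergenic regions were the higher ones. Their 21 heights had a lowest value of 44.2, a median of 62.2 and a highest value of 158, against 43.6, 49.9 and 93.3 in the 28 autosomal intergenic regions. The medians thus differed by 12.3. Among the 368 highest of each replicate the X minus autosomal difference of medians had the same sign, at 6.68 in replicate 1 and 4.49 in replicate 2. The lowest heights of both classes nearly coincide because the threshold of the list fixes them.

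Ordered by height, the 9 highest intergenic regions of the genome were all on X in the pooled list. Of the 10 highest, 9 were on X (90%, 59.6 to 98.2%), of the 20 highest 12, of the 50 highest 22 and of the 100 highest 37, whereas 26.5% of all 3403 pooled intergenic regions were on X. In replicate 1, X held 8 of the 10 highest, 14 of the 20 highest and 21 of the 50 highest intergenic regions. In replicate 2 it held 9 of the 10 highest, 11 of the 20 highest and 20 of the 50 highest. The surplus was largest at the top of each list. Among the 1000 highest the share on X was 28.2% in the pooled list, 28.8% (26.1 to 31.7%) in replicate 1 and 25.3% in replicate 2. Over all intergenic regions of these lists it was 26.5%, 25.9% and 24.7%. In replicate 1 a smaller surplus thus remained among the 1000 highest. The autosomal region among the 10 highest, chrIII:9765441-9765836 with a height of 93.3 (53.9 in replicate 1 and 38.2 in replicate 2), lay 870 bp from cbp-1, a gene of a CBP/p300 histone acetyltransferase. It was followed by chrII:5543491-5543886 (88.8), inside the spliced leader RNA gene sls-2.2, and chrIV:14033913-14034308 (85.4), 4 bp from the microRNA gene cel-mir-52.

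**Figure D3:**
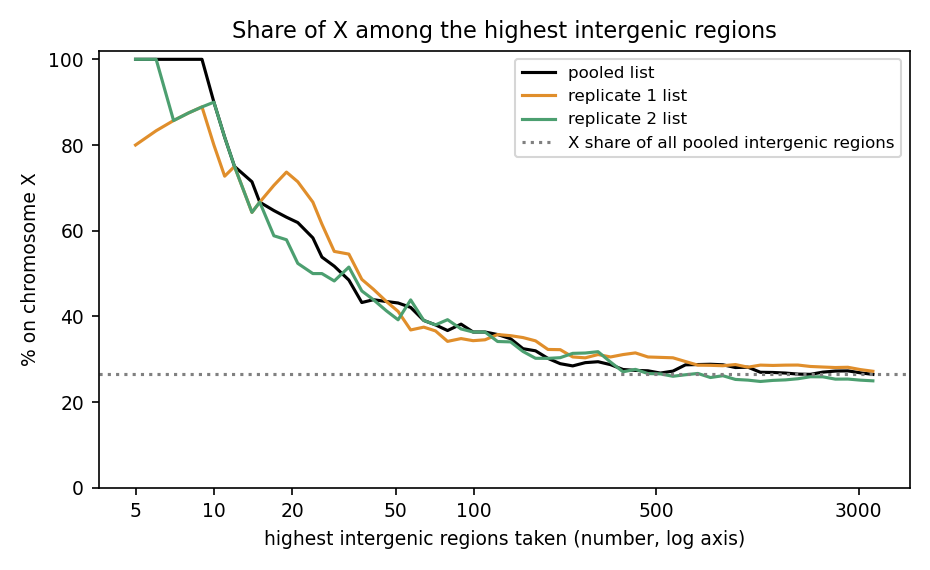
Percent on X (y axis) among the highest intergenic regions as more are taken (x axis, number, log scale), in the pooled list and in the list of each replicate. The dotted line is the share of X among all pooled intergenic regions, 26.5%, which each line nears as the number grows.

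Support in the replicates was similar in both classes when it meant being found, and differed when it meant being high. Found means that the summit of the pooled region was covered by a region of the replicate's own list. Of the X intergenic regions 300 of 901 (33.3%, 30.3 to 36.4%) were found in both replicates, and of the autosomal intergenic ones 876 of 2502 (35.0%, 33.2 to 36.9%), against 40.5% of all pooled regions. In the optimal list 20 of 21 X intergenic regions (95.2%) and 28 of 28 autosomal intergenic regions (100%) were found in both. By rank, 14 of 21 X intergenic regions (66.7%, 45.4 to 82.8%) were among the 368 highest of both replicates. This compared with 8 of 28 autosomal intergenic regions (28.6%, 15.3 to 47.1%) and 140 of all 368 (38.0%). The intervals of the X and autosomal shares overlap slightly. The pooled list was made from the same 2 replicates, and in it these X regions were already higher (median 62.2 against 49.9). Being high in both replicates thus partly restates pooled height and is not separate support. As a description over regions that share their libraries, the heights in the replicates had a Spearman rho of 0.27 and a Pearson r of 0.83 over the 300 X intergenic regions, and 0.094 and 0.39 over the 876 autosomal ones. Without the 12 highest X intergenic regions, rho was 0.18 and r was 0.43 over 288 regions, so the high r on X rested largely on those 12. The autosomal regions were not trimmed in the same way. Overlapping pooled regions can be covered by the same replicate region, so some replicate heights entered these values more than once.

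**Figure D4:**
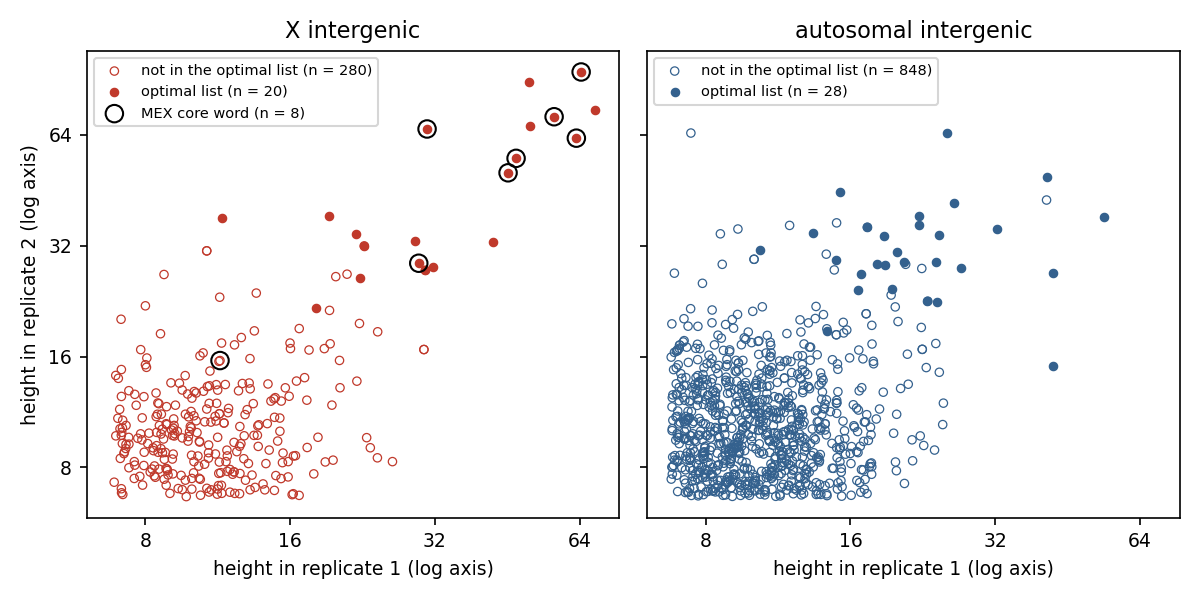
Height in replicate 1 (x axis, log scale) and replicate 2 (y axis, log scale) of the intergenic regions found in both, for X (left, n = 300) and the autosomes (right, n = 876). Filled points are in the optimal list and black rings mark the MEX core word; X reaches 69.0 in replicate 1 and 94.7 in replicate 2, and the autosomes 53.9 and 64.7.

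The MEX core word GCGCAGGG was then counted in windows of 201 bp centred on the summit, on either strand. It was present in 9 of 901 X intergenic regions (0.999%, 0.526 to 1.89%) and in 0 of 2502 autosomal intergenic regions, which allows up to 0.153%. Among all windows of this length laid end to end through the same classes of sequence, 0.0914% held it on X and 0.0550% on autosomes, and 0.0605% did over all chromosomes. The word went with height. It was in 7 of the 21 optimal X intergenic regions (33.3%, 17.2 to 54.6%) and in 2 of the other 880 (0.227%, 0.0623 to 0.825%), against 0 of 28 optimal autosomal intergenic regions (up to 12.1%). By height, 6 of the 10 highest X intergenic regions held it, 1 of the next 11, 1 of the next 79 and 1 of the remaining 801.

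**Figure D5:**
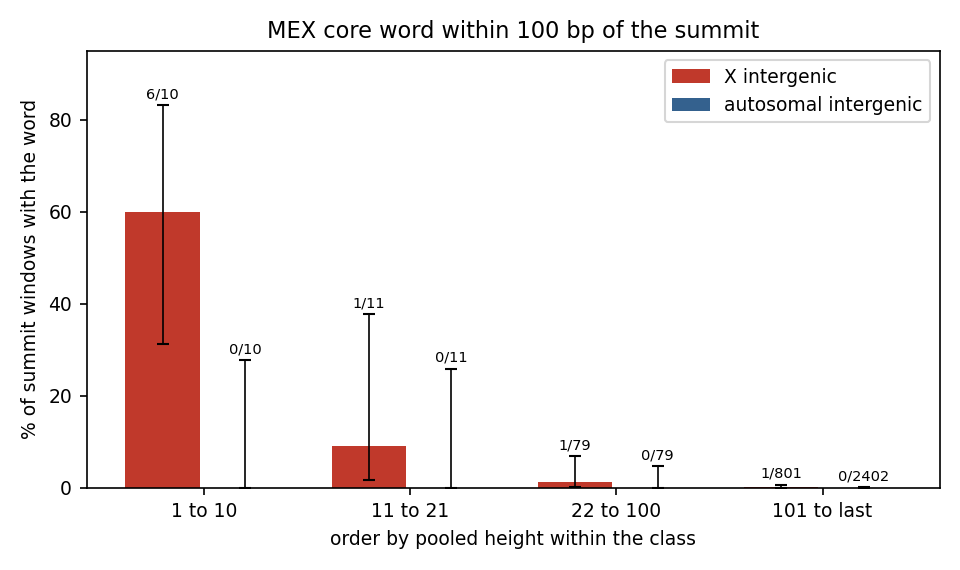
Percent of summit windows of 201 bp with the MEX core word (y axis) by order of pooled height within the class (x axis), for X intergenic and autosomal intergenic regions; error bars are 95% Wilson intervals over regions. The word was in 6 of the 10 highest X intergenic regions and in none of the autosomal intergenic ones.

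The 7 optimal X intergenic regions with the word had heights of 59.8 to 158 with a median of 105, and the 14 without it had 44.2 to 151 with a median of 52.7. Both ranges overlap, since the regions at ZK899.6, adm-2 and dot-1.4 were high without this word. With word-bearing regions left out, the difference of median height between X and autosomal optimal intergenic regions was 2.85. This drop was fixed in advance: 6 of the 10 highest X intergenic regions held the word, and 0 of the 28 autosomal optimal ones. Leaving them out lowers the X median whatever the word does, so the part of the word in the heights was not tested. The word lay a median of 36 bp from the summit, with a range of 11.5 to 81.5 bp over its 8 copies. The same held for X regions in or near genes: 5 of 29 optimal ones had the word (17.2%, 7.60 to 34.5%), with a median height of 136, against a median of 51.5 in the 24 without it. On autosomes 1 of the 290 optimal regions in or near genes had it.

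Having the word was far from enough for a high region. Chromosome X has 81 copies (4.57 per Mb), of which 21 lay in the window of a pooled summit and 15 (18.5%, 11.6 to 28.3%) in that of an optimal one. The autosomes have 233 copies (2.82 per Mb), of which 8 were at a pooled and 1 (0.429%, 0.0758 to 2.39%) at an optimal summit. In intergenic sequence 8 of 30 copies on X were at an optimal summit, and 0 of 53 on the autosomes. The second word, GCGAAGGG, has 140 copies on X and 491 on autosomes. It was in 7 of 21 optimal X intergenic regions, 1 of the other 880 and 5 of the 2502 autosomal ones. With both words counted, 11 of 21 optimal X intergenic regions (52.4%, 32.4 to 71.7%) and 9 of the 10 highest held at least 1. Since GCGAAGGG was read from those windows, these shares only describe them.

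The median base composition of the high regions was alike on X and autosomes, but its quartiles and repeated GAGAGA were not. The windows of the 21 optimal X intergenic regions had a median of 40.8% G and C, against 30.3% in the other X intergenic regions. The autosomal values were 41.3% and 31.3%. Quartiles of the optimal windows were 34.8 and 43.3% on X, and higher on autosomes, at 38.4 and 52.0%. Bases marked as repeats in the RefSeq sequence made up a mean of 19.4% in the optimal X intergenic windows and 38.8% in the others, and 19.4% and 42.3% on autosomes. The word GCGCGC, which overlaps the MEX core in the letters GCGC, was in 11 X intergenic windows (1.22%) and 40 autosomal ones (1.60%). It too was more frequent in the optimal list. On X it was in 2 of 21 optimal windows (9.52%) and 1.02% of the others, and on autosomes in 2 of 28 (7.14%) and 1.54%. The repeated GAGAGA was in 5 of 21 optimal X intergenic windows (23.8%) and 13 of 28 autosomal ones (46.4%). Among the other windows GAGAGA was in 12.2% on X and 15.0% on autosomes. By height it was in 1 of the 10 highest X intergenic and 6 of the 10 highest autosomal intergenic windows, in 4 of 11 of each class at places 11 to 21, and at places 22 to 100 in 19.0% (11.9 to 29.0%) and 44.3% (33.9 to 55.3%). The run TTTTTT was in 6 of 21 (28.6%) and 11 of 28 (39.3%). Runs of T were in 74.4% of the other X intergenic windows and 75.2% of the other autosomal ones. The part of base composition in the heights was not tested.

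Around the regions, protein-coding genes were at similar distances in both classes. The median distance to the nearest was 1583 bp (quartiles 932 and 3152) for X intergenic and 1589 bp for autosomal intergenic regions. Neighbouring genes ran in tandem at 54.5% of X intergenic regions, away from the region at 39.2% and towards it at 6.33%, close to the 54.3%, 40.0% and 5.68% of the autosomal class. In the optimal list the counts were 14 tandem, 3 divergent and 4 convergent on X, and 11 tandem, 15 divergent and 2 convergent on autosomes. The regions at W04G3.11, F22H10.2, F43E12.1 and F56C3.1 were the convergent ones on X.

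The kinds of noncoding gene near the regions differed between the whole classes. Counted together, genes that are not protein-coding were within 500 bp of 262 X intergenic (29.1%) and 821 autosomal intergenic (32.8%) regions. A tRNA gene was within 500 bp of 52 X intergenic regions (5.77%), against 17 autosomal ones (0.679%), and X carries 276 of the 612 annotated tRNA genes. Genes of the general ncRNA biotype were within 500 bp of 201 X intergenic (22.3%) and 313 autosomal (12.5%) regions, whereas piRNA genes, of which X carries 162 of 15363, were near 12 and 289. In the optimal list 3 X intergenic regions were near a tRNA gene and 7 near an ncRNA gene, and 1, beside the 14-3-3 gene ftt-2, lay inside a noncoding gene, F52D10.9. Of the 28 autosomal optimal intergenic regions, 1 was near a tRNA gene, 9 were near an ncRNA gene and 7 lay inside a noncoding gene. The ncRNA shares were thus close in the optimal list, 33.3% on X and 32.1% on autosomes, and a gene of any noncoding kind was near 7 of 21 on X and 14 of 28 on autosomes. Leaving out all regions within 500 bp of a tRNA gene left X with 40.0% of the optimal intergenic regions, against 42.9% (21 of 49) with them.

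The regions were spread along the whole chromosome. Cut into 10 equal lengths, X held 67 to 115 X intergenic regions and between 1 and 4 optimal ones in each, with the highest region of each length between 45.0 and 158. The 21 optimal summits were a median of 812 kb apart (13.6 to 2156 kb), and the 12 highest a median of 1429 kb. The closest pair, 13648 bp apart, was the region near hpk-1 and chrX:4222754-4223149 near rab-37. Of the 901, 851 were left after those overlapping a higher one were dropped, and the 21 optimal ones did not overlap each other. Members just inside the distance limit, at 502, 503 and 503 bp, had heights of 20.1, 14.7 and 19.6, and X regions just outside, at 500, 498 and 497 bp, had 16.1, 16.4 and 16.2.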

How the data were processed

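ChIP-seq was performed on 2 biological replicates of whole L3 larvae, with library fragments of 150 to 350 bp, per the labels. The authors deposited region lists on ce11 and ce10: a relaxed list per replicate (30000 and 26751 regions) and for the pooled replicates, and an optimal list. The deposited signal value of a region is its height, on a scale that is not given. The authors' −log10 q-value had its maximum in 470 pooled regions, 23 of them X intergenic, and was not used. The aligner, the peak caller and any control subtraction are likewise not given in the sources used here. No read counts were used, so depth is unknown, and the Wilson intervals (95%) cover counting over regions only. Whether the samples came from separate cultures is not stated beyond the word biological.

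Regions were classed with 19973 protein-coding genes of Ensembl release 115, and sequence came from RefSeq's WBcel235. Python 3.11.15, pandas 2.3.3, numpy 2.4.6 and SciPy 1.17.1 were used, and the classing and word counts were tested on simulated data. The regions to be named were by rule the 12 highest X intergenic ones, the others of the optimal list, the 6 highest autosomal intergenic ones, and their neighbouring genes; the first region below the threshold was added. Members, lists and words were chosen with earlier results of these data known. With 1 group, no test between conditions was possible. Alternatives changed the distance, the gene set, the overlap, the word window, the list or the replicate. The ce10 lists were compared by chromosome only.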

Additional observations from a re-analysis of the deposited data

How the results depend on the processing

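Of 58 alternative values, 40 stayed within the spread of the replicates or the interval of the main value, 16 moved beyond it and 2 changed sign. The cause was not tested. For the differences of median height, this tally sets pooled values beside those of the replicate lists, whose scale differs. Whether these stayed or moved is therefore no measure of the processing, and only their signs can be compared. The difference of median height between all X intergenic and autosomal intergenic regions, 0.0207, changed sign at a distance of 250 bp (-0.0949) and 1000 bp (-0.0402), and was 0.0997 to 0.239 with 1 replicate left out. The median difference within the optimal list, 12.3, kept its sign. It was 7.38 at 250 bp, 49.1 with genes of every biotype except piRNA and 39.1 in the 184 highest of the optimal list. Without word-bearing regions (chosen after the data were seen) it was 2.85, where only X regions were dropped, most of them high. With 1 replicate left out it was 4.49 to 6.68, on the scales of the single replicates. The autosomal optimal share, 1.12%, was 1.89% at 250 bp and 0.724% with every biotype. It was 0.480% in the 184 highest, where fewer regions can be counted. With 1 replicate left out it was 0.429 to 0.720%, and the X share was 1.06 to 1.57%. The replicate lists are longer, and the share over all their regions was 1.23 and 1.38%, against 2.12% pooled. Such moves thus partly follow from list length and cut-off, and are no measure of the processing alone. With 1 replicate left out the number of X intergenic regions was 1277 to 1791, in lists of 26751 and 30000 regions, against 17335 pooled. The share with the MEX core word was 0.447 to 0.705% of these larger numbers, so it is not comparable with the pooled 0.999%. Support in both replicates was 42.2% when 1 bp of overlap sufficed. X held 30.1 to 53.8% of the highest intergenic regions under the alternatives tried, against 26.5% of all pooled intergenic regions at 500 bp. The lowest value, 30.1%, was at 250 bp. The share of X among all intergenic regions at that distance is not given here, so the size of any surplus there is open. Of the whole optimal list, X held 13.6% on ce11 and 13.2% on ce10, below its 16.8% and 17.0% of all pooled regions. Depth is unknown, so low regions cannot be ranked by reliability.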
